A study of Mus musculus with 12 samples.

Results

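The comparison described here set the aortic arch of DBA/2J (DBA) mice against that of 129S6/SvEvTac (129) mice across all genes measured. The 3 arrays titled for DBA arch were set against the 3 titled for 129 arch, which makes 6 of the 12 arrays of the series. Each of these 6 arrays held the RNA of a separate pool of 5 mice. All the mice were wild-type males on regular chow, 2 to 5 months old. The C57BL/6 (B6) arch, with pools of 4, 5 and 5 mice, entered the same model and is given where it places a value, and 3 arrays of the 129 aortic root were not part of the fit. Expression was read on Affymetrix Mouse Gene 2.1 ST arrays, whose probes tile each transcript along its length, and all values below are on the log2 scale unless said otherwise. The backgrounds were crossed, in mice that lack apolipoprotein E, to map the size of plaques. The question here is which genes differed between the backgrounds in the arch of mice that carry the Apoe gene. Pooled mice and whole tissue limit the comparison, since neither single animals nor single cell types were measured.

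The arch wall consists of layers of smooth muscle cells between elastic lamellae, an endothelial lining, and an outer adventitia with fibroblasts, small vessels, nerves and resident immune cells. Fat and lymphoid tissue lie against it. Plaques begin when lipoproteins are held in the inner wall and macrophages take them up, so genes of antigen presentation, interferon response, lipid uptake, matrix turnover and vascular tone are of interest in such a cross. Inbred strains also carry fixed alleles, and single genes can be silent in one strain and active in another.

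A total of 22180 genes was tested, each represented by its brightest probe set (transcript cluster) with 1 symbol. The median gene lay at 5.61 over the arch arrays, and array medians over all clusters were between 4.68 and 4.82. Markers of the wall were high and even: Acta2, the smooth muscle actin, lay between 13.23 and 13.34 on all 6 arrays, and Cdh5, the endothelial cadherin, between 11.17 and 11.35. Apoe, the gene absent from the mice of the cross, was at 6.63, 6.47 and 6.61 in DBA and 6.42, 6.44 and 6.11 in 129. One array stood apart. The library labelled DBA replicate 2 held transcripts of heart and lung, with a linear signal of 7414 for Nppa, the atrial natriuretic peptide, against 29.3 and 78.3 on the other DBA arrays and 32.4 to 58.8 on the 129 arrays. The summed linear signal of 18 cardiomyocyte genes was 45563 on that array, 1793 and 1849 on the other DBA arrays and 2055 to 3278 on the 129 arrays. For 14 lung epithelial genes the sum was 8303 on DBA replicate 2 and 220 to 390 elsewhere among these arrays. Without that array, Sln, a regulator of the muscle calcium pump, and Csrp3, a protein of striated muscle, were at -2.18 and -1.86 in DBA relative to 129 (adjusted p = 0.00999 and 0.117). Nothing below rests on genes of these lists. The total of called genes and some shares by chromosome are also given without this array, whereas counts within gene lists include it.

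Differences were estimated with limma over the 9 arch arrays and adjusted by the Benjamini-Hochberg method over all genes, with a threshold of 0.05. Of the 22180 genes, 320 passed (1.44%). DBA had higher signal than 129 for 191 of them (0.861%) and lower signal for 129 (0.582%). The difference was at least 2-fold for 183 genes, at least 4-fold for 56 and at least 8-fold for 17. All 320 had groups that did not overlap, a pattern that 20.9% of all genes showed. The median difference over all genes was 0.0014. Counts depended on single arrays: 197, 201 and 188 genes passed without DBA replicates 1, 2 and 3, and 144, 165 and 159 without 129 replicates 1, 2 and 3. The number was 510 without B6 replicate 1, which enters only through the shared spread. To set apart the calls that no array decides, the model was refitted 10 times, leaving out each arch array in turn and then both DBA replicate 2 and B6 replicate 1. A total of 125 genes passed every time (0.564% of all genes), 75 higher and 50 lower in DBA. These are called stable calls below, and a 2-fold difference or more was found for 109 of them. The arrays on which the other calls depended are given for those that are named, with the adjusted p without them and the range over all alternatives tried.

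**Figure D1:**
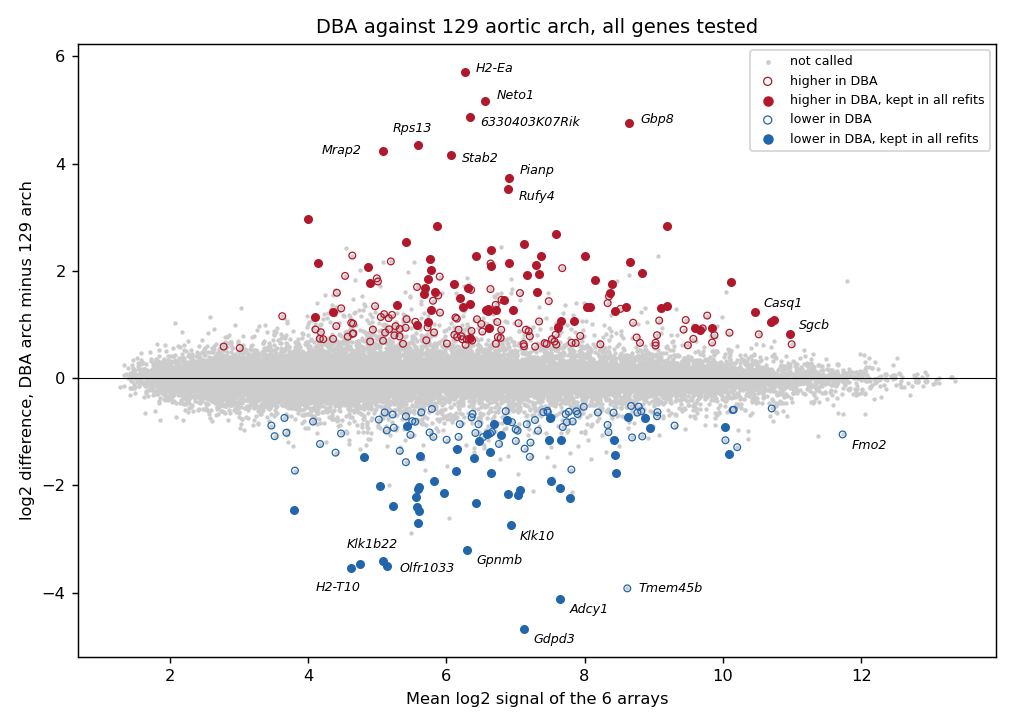
Each point is 1 of the 22180 genes, with the mean log2 signal of the 6 arrays on the x axis and the log2 difference, DBA arch minus 129 arch, on the y axis. Red points are higher and blue points lower in DBA at an adjusted p under 0.05 (191 and 129 genes), filled points passed in all 10 refits, and the largest differences, from 5.71 for H2-Ea to -4.68 for Gdpd3, lie at intermediate mean levels.

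For most of the largest differences 1 strain lay below the median gene. The plot of lead genes shows, array by array, the 12 stable calls with the largest difference in each direction. Among genes higher in DBA the leading ones were H2-Ea, Neto1, 6330403K07Rik, Gbp8, Rps13, Mrap2, Stab2, Pianp, Rufy4, Mcpt2, Snora73b and Plaat1, with differences of 2.83 to 5.71. Among genes lower in DBA the leading ones were Gdpd3, Adcy1, H2-T10, Olfr1033, BC018473, Klk1b22, Gpnmb, Klk10, Glrb, Gbp2b, Mndal and C920006O11Rik, with differences of -4.68 to -2.40. Among all called genes, both strains were at or above the median gene for 187, only the lower strain was below it for 94, and both were below it for 39. The array files give no detection calls, so a fold against a dim strain is a measured ratio of signals and not a ratio of transcripts. Members of multigene families such as Gbp8, Klk1b22, H2-T10 and Mcpt2 have near-identical copies, whose transcripts can share probes.

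**Figure D2:**
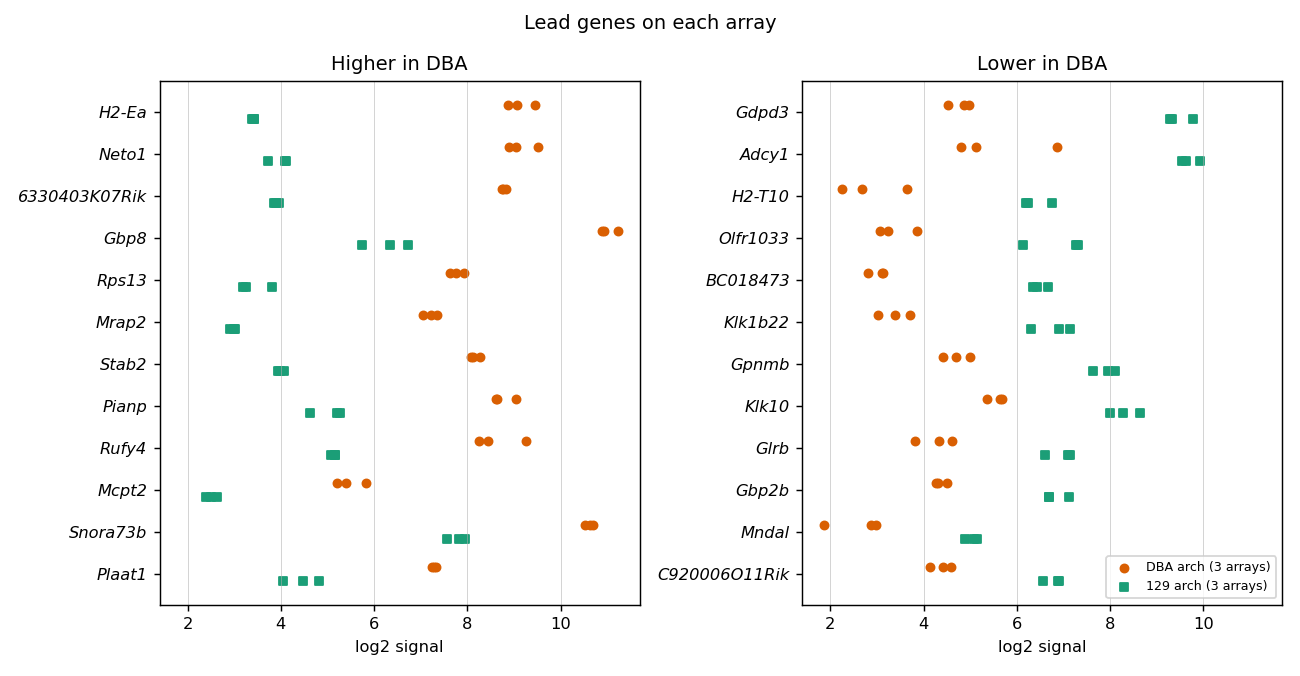
The x axis is the log2 signal on each array, with DBA arch (orange circles, 3 arrays) above 129 arch (green squares, 3 arrays) for each gene. The left panel has the 12 genes that led the stable calls higher in DBA and the right panel the 12 that led those lower in DBA, and no pair of groups overlaps. Adcy1 on DBA replicate 2 (6.85) is the DBA value that lies farthest from its group among the genes lower in DBA.

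Calls among the antigen presentation genes fell on single chains. H2-Ea (chromosome 17, transcript cluster 17343827), the alpha chain of the class II molecule I-E, had log2 signals of 9.07, 9.45 and 8.86 in DBA and 3.39, 3.43 and 3.43 in 129. This is a difference of 5.71 ± 0.15 (SE, adjusted p = 2.86e-07), or 52.3-fold, and the B6 arch mean was 3.38. Mice of the b haplotype, which B6 and 129 carry, are known to lack I-E because H2-Ea is not transcribed, and the reference annotation, built on B6, lists it as a transcribed pseudogene. H2-Aa, the alpha chain of the other class II molecule I-A, went the other way, with 6.54, 7.06 and 6.91 in DBA against 7.63, 7.74 and 8.08 in 129 (-0.98 ± 0.17, adjusted p = 0.0266). It missed the threshold when DBA replicate 1, DBA replicate 3 or any 129 array was omitted (adjusted p = 0.0641 to 0.0985), and alternatives ranged from 0.00566 to 0.225. Of 10 measured class II genes 1 was called higher and 1 lower, against 1.44% of all genes called. The other 8 did not pass, and the median difference of the list was -0.27. An unadjusted p under 0.05 was found for 6 of the 10. Without overlap, 2 lay higher and 4 lower in DBA, against 20.9% of all genes. In bulk tissue fewer cells of a type and less RNA per cell cannot be told apart.

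Class I genes and the peptide-loading machinery differed at 1 of 18 measured members, against 1.44% of all genes called. H2-T10, a class I-like gene of the H2-T region, had 2.26, 2.68 and 3.65 in DBA against 6.75, 6.24 and 6.20 in 129, a difference of -3.53 ± 0.32 (adjusted p = 0.000904). The median over the 18 genes was 0.04. Rufy4, a RUN and FYVE domain protein described in dendritic cells, had 9.26, 8.45 and 8.24 in DBA, against 5.08, 5.17 and 5.15 in 129. Its difference of 3.52 ± 0.25 (adjusted p = 0.000201) placed 129 and the B6 mean (5.08) at the same low level. Ly75, the endocytic receptor DEC-205 of dendritic cells and thymic epithelium, was chosen after its values were seen. DBA had 7.91, 7.52 and 8.07 and 129 had 5.40, 5.40 and 5.54, a stable difference of 2.39 ± 0.14 (adjusted p = 9.57e-05).

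Guanylate-binding proteins are interferon-inducible GTPases that attack membranes around intracellular pathogens. Their genes lie in clusters on chromosomes 3 and 5, and 2 of 10 measured were higher and 2 lower in DBA, against 1.44% of all genes called. Gbp8 on chromosome 5 had 11.23, 10.89 and 10.94 in DBA and 6.74, 5.73 and 6.34 in 129, a difference of 4.75 ± 0.26 (adjusted p = 7.89e-05), or 26.8-fold. Gbp2b on chromosome 3, named Gbp1 in older work, had 4.51, 4.26 and 4.32 in DBA against 6.69, 7.12 and 6.69 in 129, a difference of -2.47 ± 0.17 (adjusted p = 0.000168). Both were stable calls. The neighbours of Gbp8 had smaller differences. Gbp6 was at 0.72 ± 0.12 (adjusted p = 0.0215) and missed the threshold when replicate 1 or replicate 3 of either strain was omitted (0.0813 to 0.0985; alternatives 0.00456 to 0.113). Gbp9 was at -0.67 ± 0.13 (adjusted p = 0.0411) and missed it when any array of either strain, or the pair of DBA replicate 2 and B6 replicate 1, was omitted (0.0901 to 0.155; alternatives 0.0110 to 0.188). The other 6 members did not pass, and the median of the list was 0.40.

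No call fell in the wider interferon response. Of 18 measured interferon-induced genes outside these families none passed in limma and 2 had an unadjusted p under 0.05, with a median of 0.03. Oasl2, an oligoadenylate synthetase-like gene, was at 0.59 ± 0.23 (adjusted p = 0.343). Mndal, a DNA-binding protein of the Ifi200 cluster on chromosome 1, was the other lead gene of this kind. It had 2.98, 2.87 and 1.87 in DBA and 5.14, 4.88 and 5.07 in 129, a difference of -2.45 ± 0.30 (adjusted p = 0.00458), and DBA was dim on all 3 arrays. Among 5 measured genes of that cluster Ifi202b was the other called member, at 0.73 ± 0.13 (adjusted p = 0.0267). Omitting DBA replicate 2, DBA replicate 3, B6 replicate 3, any 129 array, or the pair of DBA replicate 2 and B6 replicate 1 ended this call (0.0546 to 0.102), and alternatives ranged from 0.0172 to 0.154.

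The promoters of Gbp2b and Mndal are shown because both are interferon-inducible genes that were lower in DBA. They were taken from RefSeq on build GRCm38.p6, the C57BL/6 reference, so they are the sequence of neither DBA nor 129. Each runs 5′ to 3′ from 250 bases before to 50 bases after the annotated start. Capitals mark the core of the interferon-stimulated response element, a pair of GAAA blocks with any 2 bases between them, or its reverse complement, which was searched on both strands.
Gbp2b, chr3:142594597-142594896, plus strand: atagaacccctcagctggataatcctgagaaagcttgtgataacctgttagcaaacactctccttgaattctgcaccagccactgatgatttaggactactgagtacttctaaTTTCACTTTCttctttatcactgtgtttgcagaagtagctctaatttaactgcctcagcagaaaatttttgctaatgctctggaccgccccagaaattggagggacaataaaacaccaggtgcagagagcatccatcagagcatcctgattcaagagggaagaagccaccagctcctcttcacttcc
Mndal, chr1:173880138-173880437, minus strand: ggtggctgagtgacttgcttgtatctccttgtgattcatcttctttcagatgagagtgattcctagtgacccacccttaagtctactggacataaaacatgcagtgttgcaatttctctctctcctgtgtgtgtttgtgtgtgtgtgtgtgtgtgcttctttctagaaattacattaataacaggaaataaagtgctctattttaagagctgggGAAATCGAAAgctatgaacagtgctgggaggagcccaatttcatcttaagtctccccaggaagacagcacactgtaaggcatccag
The match starts 137 bases before the start of Gbp2b and 36 bases before the start of Mndal shown here. RefSeq lists another start of Mndal, whose promoter is not printed and holds a match 54 bases before that start. Among all 32851 promoters listed there, 3.44% held the motif. Counted by gene, 3.99% of the 27025 genes with an entry held it in at least 1 promoter. Among the called genes, 244 had an entry and 8 of them held it (3.28%), 5 higher and 3 lower in DBA. The share of called genes was not above that of all genes, so the count is no result about the called genes.

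Inflammasome genes changed at a caspase and a cytokine, in opposite directions. Casp4, called caspase-11 in mice, senses cytosolic lipopolysaccharide. It had 6.63, 6.60 and 7.13 in DBA and 4.55, 4.89 and 4.88 in 129, a difference of 2.01 ± 0.19 (adjusted p = 0.00105), or 4.04-fold. The 129 strains are known to carry a defective allele of this gene. Il18, a cytokine matured by inflammasome caspases, had 4.84, 4.88 and 4.95 in DBA against 6.28, 6.53 and 6.21 in 129, a difference of -1.45 ± 0.19 (adjusted p = 0.00580). Both were stable calls, and the other 12 measured members, Nlrp3, Casp1 and Il1b among them, did not pass. Of the 14 measured, 1 was called higher and 1 lower, against 0.861% and 0.582% of all genes. An unadjusted p under 0.05 was found for 4, and by mean signal 8 lay below the median gene. Without overlap, 3 lay higher and 1 lower in DBA, against 20.9% of all genes. Tlr6, which pairs with Tlr2 to bind bacterial lipopeptides, was the called member of 15 Toll-like receptor genes and adaptors, with 6.37, 6.54 and 6.64 in DBA and 5.05, 5.56 and 5.29 in 129 (1.22 ± 0.24, adjusted p = 0.0461). Omitting any array of either strain or B6 replicate 3 ended the call (0.0751 to 0.173), and alternatives ranged from 0.00757 to 0.362.

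Receptors for modified lipoproteins and cell debris were called higher in DBA at 3 of 17 measured members, against 0.861% of all genes, and none was lower. Only 1 of the 3 was a stable call, and the median of the list was 0.07. Stab2 on chromosome 10, an endothelial receptor that clears hyaluronan, had 8.28, 8.07 and 8.12 in DBA and 3.98, 4.06 and 3.93 in 129. The difference of 4.17 ± 0.25 (adjusted p = 9.57e-05) was a stable call, and the B6 mean was 4.39. Its relative Stab1 was at 0.21 ± 0.23. Scarb2, a lysosomal membrane receptor, was at 0.80 ± 0.14 (adjusted p = 0.0292) and Olr1, the endothelial receptor LOX-1 for oxidised low-density lipoprotein, at 0.77 ± 0.15 (adjusted p = 0.0403). Omitting any array of either strain ended both calls. For Scarb2 the pair of DBA replicate 2 and B6 replicate 1 did so too (0.0659 to 0.110; alternatives 0.00644 to 0.188), and for Olr1 B6 replicate 2 (0.0617 to 0.160; alternatives 0.0180 to 0.236). The scavenger receptors Cd36 and Msr1, which macrophages use to take up oxidised lipoprotein, were at -0.06 ± 0.52 and 0.07 ± 0.25.

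Lipid enzymes held the gene with the largest decrease. Gdpd3 on chromosome 7 (transcript cluster 17483098), a lysophospholipase D that makes lysophosphatidic acid, had 4.87, 4.97 and 4.53 in DBA and 9.34, 9.78 and 9.28 in 129. The difference was -4.68 ± 0.27 (adjusted p = 9.57e-05), so that 129 had 25.6-fold more, and the B6 mean of 5.36 lay beside DBA. It was the called member of 16 measured lysophospholipid and glycerophosphodiester enzymes, whose median was 0.01. Plaat1, a phospholipase and acyltransferase of membrane lipids, had 7.24, 7.29 and 7.32 in DBA and 4.04, 4.83 and 4.48 in 129 (2.83 ± 0.23, adjusted p = 0.000430). Elovl7, an elongase of long-chain fatty acids, had 5.62, 5.84 and 5.84 in DBA against 7.73, 7.15 and 7.73 in 129, a stable difference of -1.77 ± 0.17 (adjusted p = 0.00115). Scd4, a desaturase, was the other called member of the 15 elongases and desaturases, at 0.92 ± 0.17 (adjusted p = 0.0403), and omitting any array of either strain or B6 replicate 3 ended its call (0.0645 to 0.142; alternatives 0.00942 to 0.272). Slc27a2, a fatty acid transporter and acyl-CoA synthetase chosen after its values were seen, had 6.79, 6.22 and 6.86 in DBA and 8.89, 8.65 and 8.50 in 129 (-2.05 ± 0.24, adjusted p = 0.00402). Genes of sterol synthesis (12 measured) and of cholesterol efflux and lipoproteins (13 measured) had no called member in limma, with medians of -0.19 and -0.03 and 2 and 3 genes at an unadjusted p under 0.05.

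Several receptors and signalling enzymes were low in either DBA or 129. Neto1 on chromosome 18, an auxiliary subunit of kainate and NMDA receptors, had 9.05, 8.89 and 9.51 in DBA and 3.73, 4.09 and 4.12 in 129, a difference of 5.17 ± 0.21 (adjusted p = 1.02e-05). The other 16 measured glutamate receptor genes and auxiliary subunits did not pass. Mrap2 on chromosome 9, the accessory protein of melanocortin receptors, had 7.05, 7.22 and 7.34 in DBA and 2.99, 2.90 and 3.02 in 129 (4.24 ± 0.11, adjusted p = 2.84e-07), while the other 7 measured genes of its list did not pass. Adcy1 on chromosome 11, a calcium-stimulated adenylate cyclase, showed the reverse pattern, with 5.12, 6.85 and 4.80 in DBA and 9.63, 9.54 and 9.93 in 129. Its difference was -4.11 ± 0.44 (adjusted p = 0.00256). The B6 arch mean was 3.87 for Neto1, 2.47 for Mrap2 and 5.27 for Adcy1, each time near the lower of DBA and 129. Pde1c, a calmodulin-dependent phosphodiesterase that breaks down cyclic nucleotides, was higher in DBA (1.19 ± 0.21, adjusted p = 0.0289). Omitting any DBA array, B6 replicate 3, 129 replicate 1 or 129 replicate 3 ended this call (0.0552 to 0.105; alternatives 0.00919 to 0.261), and the other 24 adenylate cyclases and phosphodiesterases measured did not pass.

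Sema3e on chromosome 5, a secreted semaphorin that acts on endothelial plexin D1, had 9.01, 9.23 and 9.21 in DBA and 6.23, 7.28 and 7.10 in 129 (2.28 ± 0.27, adjusted p = 0.00436). It was the called member of 14 class 3 semaphorins and their receptors. Pianp, a ligand of the immune receptor PILR alpha that is known from neural tissue, had 8.61, 8.65 and 9.04 in DBA and 4.64, 5.21 and 5.27 in 129 (3.73 ± 0.22, adjusted p = 9.57e-05). Glrb, the beta subunit of the glycine receptor, was lower in DBA, with 3.81, 4.32 and 4.62 against 6.60, 7.10 and 7.13 in 129 (-2.69 ± 0.22, adjusted p = 0.000389). The 13 measured genes of Schwann cells and neurons had no called member in limma, 1 with an unadjusted p under 0.05 and a median of 0.11, and their summed linear signal ran from 1449 to 1735 in DBA and from 1437 to 1651 in 129.

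The list of 23 measured vascular tone genes had no called member in limma, 1 with an unadjusted p under 0.05 and a median of 0.02. Outside that list, 3 receptors and 1 ligand are given here that were picked once their values had been seen, so they stand for no group. Bdkrb2, the bradykinin B2 receptor, had 6.39, 6.59 and 6.92 in DBA and 5.06, 4.80 and 5.23 in 129 (1.60 ± 0.19, adjusted p = 0.00402). Vipr1, a receptor of vasoactive intestinal peptide, was at 1.27 ± 0.16 (adjusted p = 0.00482), and its ligand Vip, a transmitter of perivascular nerves, was at 1.86 ± 0.31 (adjusted p = 0.0221). Omitting DBA replicate 3 or any 129 array ended the call of Vip (0.0692 to 0.0945; alternatives 0.00161 to 0.255), whereas those of Bdkrb2 and Vipr1 were stable. P2ry6, a receptor of uridine diphosphate on smooth muscle, endothelium and macrophages, was lower in DBA, with 7.16, 7.64 and 7.94 against 9.29, 9.28 and 9.45 in 129 (-1.76 ± 0.21, adjusted p = 0.00407).

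Of 18 measured sialic acid genes 2 were called higher and 2 lower in DBA, against 1.44% of all genes called, and 1 of the 4 was a stable call. Npl, the lyase that breaks sialic acid down, had 7.62, 7.36 and 7.72 in DBA and 4.81, 5.49 and 5.56 in 129, a stable difference of 2.28 ± 0.27 (adjusted p = 0.00417). Gne, the enzyme that starts sialic acid synthesis, was also higher in DBA, with 9.75, 9.94 and 9.96 against 9.10, 9.01 and 8.83 in 129 (0.90 ± 0.13, adjusted p = 0.0121). The sialyltransferases St6galnac2 and St3gal5, which attach sialic acid to glycoproteins and gangliosides, were lower (-0.98 ± 0.16 and -0.62 ± 0.09, adjusted p = 0.0187 and 0.0124). Gne missed the threshold when replicate 2 or replicate 3 of either strain was omitted (0.0507 to 0.0625; alternatives 0.00189 to 0.109). St6galnac2 missed it without replicate 1 or replicate 2 of either strain, or the pair of DBA replicate 2 and B6 replicate 1 (0.0567 to 0.0899; alternatives 0.00468 to 0.171). St3gal5 missed it when DBA replicate 2, DBA replicate 3 or any 129 array was omitted (0.0536 to 0.0698; alternatives 0.00185 to 0.0698). The median of the list was -0.0039.

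Of 5 measured flavin monooxygenases, enzymes that add oxygen to many drugs, 3 neighbours on chromosome 1 were lower in DBA, against 0.582% of all genes called lower. Fmo2, the main form in lung, had 10.80, 11.33 and 11.49 in DBA and 12.26, 12.27 and 12.25 in 129 (-1.05 ± 0.17, adjusted p = 0.0187). Fmo1 had 9.54, 9.53 and 9.62 in DBA against 10.87, 10.93 and 10.76 in 129 (-1.29 ± 0.22, adjusted p = 0.0247), and Fmo4 was at -1.36 ± 0.21 (adjusted p = 0.0160). None of the 3 was a stable call. Omitting any 129 array ended the calls of Fmo2 and Fmo4 (0.0631 to 0.0822; alternatives 0.00326 to 0.177 and 0.00288 to 0.192), and omitting any array of either strain ended that of Fmo1 (0.0826 to 0.102; alternatives 0.000926 to 0.251). Glutathione enzymes (22 measured), cytochromes P450 (23 measured) and aldehyde and retinaldehyde enzymes (21 measured) had no called member in limma, with 1, 3 and 4 genes at an unadjusted p under 0.05. Ada, the adenosine deaminase and the called member of 11 purine enzymes and adenosine genes, had 5.79, 5.83 and 6.19 in DBA and 7.54, 7.28 and 7.14 in 129, a stable difference of -1.38 ± 0.18 (adjusted p = 0.00649).

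Proteases and their receptors differed at a few members. The kallikreins Klk1b22 and Klk10, serine proteases of the chromosome 7 cluster, were lower in DBA. Klk1b22 had 3.71, 3.39 and 3.03 in DBA and 7.15, 6.29 and 6.90 in 129 (-3.41 ± 0.29, adjusted p = 0.000481), and Klk10 had 5.36, 5.64 and 5.68 against 7.99, 8.28 and 8.64 (-2.74 ± 0.21, adjusted p = 0.000323). These were the called members of 14 measured kallikreins, against 0.582% of all genes called lower. The other 12 did not pass, but by mean signal 12 of the 14 lay below the median gene. An unadjusted p under 0.05 was found for 5 of the 14. Without overlap, 2 lay higher and 5 lower in DBA, against 20.9% of all genes. Mmp3, the metalloprotease stromelysin-1, was higher, with 8.69, 9.01 and 9.48 in DBA and 6.82, 7.38 and 7.50 in 129 (1.82 ± 0.22, adjusted p = 0.00482), and the other 26 measured metalloproteases and inhibitors did not pass. Procr, the endothelial receptor of protein C, had 7.17, 7.08 and 6.96 in DBA against 8.34, 8.15 and 8.21 in 129 (-1.16 ± 0.12, adjusted p = 0.00218). These 4 were stable calls. Mcpt2, a mast cell protease, had 5.21, 5.82 and 5.39 in DBA and 2.40, 2.63 and 2.51 in 129 (2.96 ± 0.20, adjusted p = 0.000168). It was not on the list of 16 mast cell and neutrophil genes, none of which passed in limma (1 with an unadjusted p under 0.05), and their summed linear signal overlapped, with 768 to 1175 in DBA and 837 to 1065 in 129.

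Of 29 measured genes of the TGF-beta and BMP list 1 was called higher and 1 lower in DBA, with a median of -0.02. The shares of all genes were 0.861% and 0.582%. An unadjusted p under 0.05 was found for 7 of the 29. Without overlap, 5 lay higher and 5 lower in DBA, against 20.9% of all genes. Grem1, a secreted antagonist of bone morphogenetic proteins, had 6.90, 6.35 and 6.74 in DBA and 5.19, 4.58 and 4.69 in 129 (1.84 ± 0.19, adjusted p = 0.00200). Bmp3, an atypical member of that family, was lower, with 8.39, 8.58 and 8.52 in DBA and 9.20, 9.26 and 9.26 in 129 (-0.74 ± 0.09, adjusted p = 0.00580). Both were stable, and the other 27 did not pass. Acan, the cartilage proteoglycan aggrecan and the called member of 21 proteoglycans and link proteins, was at 1.10 ± 0.18 (adjusted p = 0.0229), with the B6 mean of 8.57 above both strains. Sfrp2, a secreted Wnt antagonist and the called member of 30 Wnt ligands, receptors and antagonists, had 10.54, 10.30 and 10.71 in DBA and 9.89, 9.45 and 9.68 in 129 (0.84 ± 0.16, adjusted p = 0.0403). Omitting any array of either strain ended the call of Acan (0.0620 to 0.0990; alternatives 0.00724 to 0.221). For Sfrp2 the omission of DBA replicate 1, DBA replicate 3, B6 replicate 2, B6 replicate 3 or any 129 array did so (0.0533 to 0.141; alternatives 0.00982 to 0.255).

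The called genes with the highest mean signal had shifts of 1.23 or less. Sgcb, the beta sarcoglycan of the membrane complex that anchors muscle fibres, had 11.32, 11.33 and 11.49 in DBA and 10.51, 10.56 and 10.62 in 129 (0.82 ± 0.10, adjusted p = 0.00580). Ckb, the brain-type creatine kinase, was 2.11-fold higher in DBA (1.07 ± 0.14, adjusted p = 0.00721). Casq1, the calcium store protein calsequestrin of muscle, had 11.22, 10.91 and 11.10 in DBA and 9.91, 9.53 and 10.09 in 129 (1.23 ± 0.17, adjusted p = 0.00834), and Map3k7cl was at 1.05 ± 0.12 (adjusted p = 0.00329). These 4 were stable calls and were measured well above the median gene in both strains. Plac9a was at 0.82 ± 0.12 (adjusted p = 0.0100) and missed the threshold without 129 replicate 1 or 129 replicate 2 (0.0525 and 0.0542; alternatives 0.000998 to 0.0696). Bcam, a laminin receptor, was at 0.63 ± 0.12 (adjusted p = 0.0472), and Klf9, a transcription factor induced by glucocorticoids, at -0.57 ± 0.11 (adjusted p = 0.0485). Omitting any array of either strain, B6 replicate 3, or the pair of DBA replicate 2 and B6 replicate 1 ended both calls, as did B6 replicate 2 for Klf9 (0.0608 to 0.179; alternatives 0.00859 to 0.192 for Bcam and 0.00836 to 0.179 for Klf9).

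Most structural groups of the wall had no called member in limma, and between 2 and 5 genes of each at an unadjusted p under 0.05. This held for 17 smooth muscle contractile genes (median 0.05), 16 endothelial genes (-0.03), 19 elastic fibre genes (-0.02), 36 collagen chains (0.14), 24 integrins (0.14), 10 laminins (0.24) and 12 adventitial fibroblast genes (-0.03). Without overlap, 10 integrins lay higher and 2 lower in DBA, against 20.9% of all genes. The counts higher and lower were 4 and 0 for laminins, 6 and 0 for collagen chains and 5 and 0 for contractile genes. They were 1 and 3 for endothelial, 3 and 1 for elastic fibre and 2 and 3 for adventitial fibroblast genes. Myh11, the smooth muscle myosin, was at 12.91, 12.87 and 12.90 in DBA and 12.92, 12.82 and 12.89 in 129. The largest contractile difference was that of Des, the muscle intermediate filament desmin, at 0.41 ± 0.18 (adjusted p = 0.397), and its signal on DBA replicate 2 was 11.35 against 10.70 on both other DBA arrays. Lamc3, a laminin gamma chain, was at 0.78 ± 0.18 (adjusted p = 0.0839), and Itga4, the alpha subunit of a leukocyte adhesion integrin, at -1.06 ± 0.22 (adjusted p = 0.0554). Among 13 selectins and adhesion molecules Selp, the P-selectin of platelets and endothelium, was lower in DBA, with 6.30, 6.53 and 6.60 against 7.50, 7.93 and 7.94 in 129 (-1.32 ± 0.26, adjusted p = 0.0487). Omitting any array of either strain or B6 replicate 3 ended its call (0.0727 to 0.171; alternatives 0.00438 to 0.385). Selp, Npl, Fmo1 and Fmo2 are also among 22 measured genes of a list of candidates that the study drew up at a chromosome 1 locus, of which 1 was higher and 3 were lower in DBA with a median of 0.06; expression was among the grounds for that choice, so the count is not independent evidence.

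**Figure D3:**
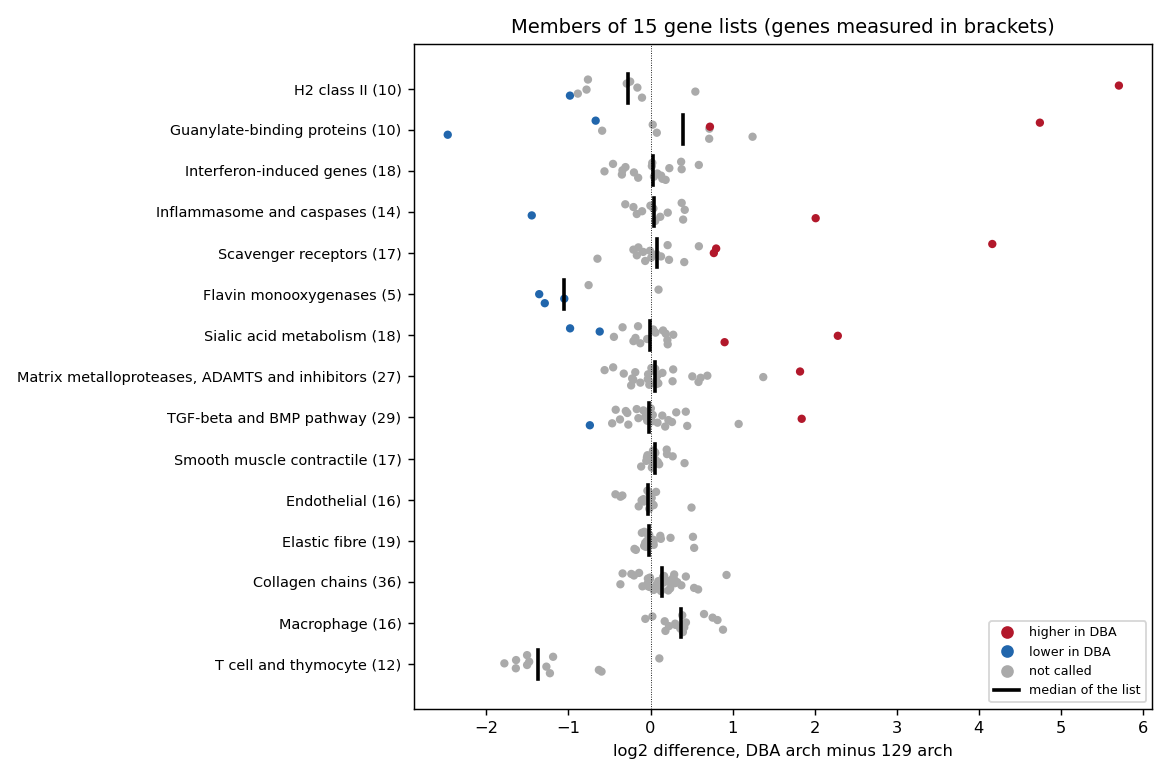
Each point is a gene of 1 of 15 lists, placed by its log2 difference, DBA arch minus 129 arch, on the x axis; points are spread within a row for legibility, and black bars are the medians. Red and blue genes passed higher and lower in DBA, and the contractile, endothelial, elastic fibre, collagen, macrophage and T cell lists hold no coloured point, although the T cell median lies at -1.37.

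Among the pigment genes, Gpnmb gave a check on the strain. Gpnmb, a membrane glycoprotein of melanosomes and macrophages, is known to carry a stop codon in DBA/2J. It had 5.00, 4.70 and 4.41 in DBA and 7.64, 7.95 and 8.11 in 129, a stable difference of -3.20 ± 0.20 (adjusted p = 9.57e-05), and the B6 mean was 7.66. Myo5a, the motor protein at the dilute coat colour locus for which DBA mice are named, was higher, with 9.98, 9.71 and 9.89 in DBA and 8.60, 8.50 and 8.45 in 129 (1.34 ± 0.16, adjusted p = 0.00436). Whether the difference of Myo5a follows from that locus was not tested, so it gives no check. The other 13 measured pigment genes did not pass. Klrd1, a natural killer receptor chain that DBA/2J mice are known to lack, was dim, with 3.51, 3.77 and 3.77 in DBA and 3.92, 4.05 and 4.30 in 129 (adjusted p = 0.482). The complement gene Hc, another known DBA/2J defect, was at 3.27, 4.84 and 3.51 in DBA and 3.42, 3.42 and 3.24 in 129, with overlapping groups. Klrd1 and Hc lay below the median gene in both strains, so neither could serve as a check. Alad, also named as a check, lay well above the median gene in both strains. It had 10.60, 10.78 and 10.51 in DBA and 10.47, 10.46 and 10.23 in 129. This difference did not pass (0.24 ± 0.15, adjusted p = 0.601), and the B6 mean was 9.52.

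T cell transcripts had lower values in DBA without passing the test. Of 12 measured T cell and thymocyte genes 10 lay without overlap lower in DBA and 1 higher, against 20.9% of all genes without overlap. None passed in limma, 10 had an unadjusted p under 0.05, and their median was -1.37. Cd8a, the T cell coreceptor, had 6.09, 6.78 and 5.59 in DBA and 8.66, 7.43 and 7.71 in 129 (-1.78 ± 0.57, adjusted p = 0.219). Their summed linear signal was 709, 1004 and 515 in DBA and 2947, 1489 and 1583 in 129, with 129 replicate 1 the highest. Ccr7, a homing receptor of lymphocytes and dendritic cells chosen after its values were seen, did pass, with 6.25 ± 0.14 in DBA and 7.12 ± 0.10 in 129 (SD, n = 3 each) and no overlap, a difference of -0.86 ± 0.11 (SE, adjusted p = 0.00573), a stable call. Il7r, the interleukin-7 receptor chain, was at -1.10 ± 0.17 (adjusted p = 0.0160) and was chosen in the same way. Omitting DBA replicate 1, DBA replicate 2, 129 replicate 2 or 129 replicate 3 ended its call (0.0555 to 0.0803; alternatives 0.00985 to 0.170). The part of the T cell transcripts in these 2 differences was not tested. B cell genes (10 measured) had a median of 0.02 and no called member in limma, with 2 at an unadjusted p under 0.05.

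Of 16 measured macrophage genes none passed in limma and 4 had an unadjusted p under 0.05. A positive difference was found for 15, against 11143 of all 22180 genes, and 7 lay without overlap higher in DBA, against 2405 of all genes. Their median was 0.37, and 0.22 without 129 replicate 1. C1qa, a complement chain made by macrophages, had 7.29, 7.35 and 7.85 in DBA and 6.28, 6.71 and 6.86 in 129 (0.88 ± 0.25, adjusted p = 0.159). Ccl8, a monocyte chemokine, was the called member of 27 chemokines, with 5.40, 5.52 and 5.97 in DBA and 4.69, 4.89 and 4.57 in 129 (0.91 ± 0.16, adjusted p = 0.0324). Omitting DBA replicate 2, DBA replicate 3, B6 replicate 3, any 129 array, or the pair of DBA replicate 2 and B6 replicate 1 ended its call (0.0546 to 0.133; alternatives 0.00764 to 0.241). Lyz1, a lysozyme gene of Paneth cells and some myeloid cells, and chosen after its values were seen, was lower in DBA (-1.91 ± 0.23, adjusted p = 0.00474), whereas its macrophage relative Lyz2 was at 0.76 ± 0.26 (adjusted p = 0.274). The 2 genes are near-identical copies, so their probes may share transcripts. Summed macrophage signal ran from 4815 to 5657 in DBA and from 3285 to 4748 in 129.

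Of 6 platelet and red cell genes and 15 fat genes none passed in limma, with 4 and 1 at an unadjusted p under 0.05. Ppbp, a chemokine stored in platelets, had 12.89, 12.76 and 12.44 in DBA and 9.80, 11.46 and 11.39 in 129 (1.81 ± 0.46, adjusted p = 0.117), and Gp9 and Itga2b, subunits of platelet receptors, were at 1.61 ± 0.54 and 1.40 ± 0.47. The red cell anion exchanger Slc4a1 went the other way at -1.03 ± 0.42. Among the brown and white fat genes 14 had a negative difference, against 11037 of all 22180 genes, with a median of -0.37 and summed linear signals of 30130, 24804 and 23178 in DBA against 33242, 33633 and 29287 in 129. Ucp1, the uncoupling protein of brown fat, was at 12.51, 12.06 and 11.75 in DBA and 12.55, 12.60 and 12.26 in 129. Of 19 measured proliferation genes 18 had a negative difference, read against the same background, and none passed in limma (5 at an unadjusted p under 0.05, median -0.30), with Mki67, a marker of cycling cells, at 6.43, 6.23 and 6.54 in DBA and 7.33, 7.21 and 7.47 in 129 (-0.94 ± 0.20, adjusted p = 0.0666).

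Of 16 measured circadian clock genes none passed in limma and 6 had an unadjusted p under 0.05. The clock runs on a loop in which Arntl and Clock or Npas2 activate the Per, Cry and Nr1d genes, whose proteins repress the loop in turn, and also the genes of the D-box activators Dbp, Tef and Hlf. Arntl was at 8.77, 9.07 and 8.63 in DBA against 7.68, 7.96 and 8.04 in 129 (0.93 ± 0.33, adjusted p = 0.286). Npas2 had 10.03, 10.17 and 9.96 in DBA and 8.66, 9.31 and 9.24 in 129 (0.99 ± 0.44, adjusted p = 0.426). Among the targets, Per3 had 7.02, 6.78 and 7.64 in DBA and 8.09, 8.17 and 8.23 in 129 (-1.02 ± 0.26, adjusted p = 0.119), and Tef was at -0.70 ± 0.22 and Nr1d2 at -0.51 ± 0.25. Cry1, another target, had the opposite sign, with 6.48, 6.70 and 6.63 in DBA and 6.01, 5.95 and 6.36 in 129 (0.49 ± 0.14, adjusted p = 0.172). Groups did not overlap for 3 of the 16 genes higher in DBA (Arntl, Npas2 and Cry1) and for 5 lower, against 20.9% of all genes without overlap. From Per3 to Hlf in the plot of clock genes, DBA replicate 3 was the DBA array nearest to the 129 mean, as for Dbp, a D-box factor, with 8.95, 8.65 and 9.71 in DBA and 9.53, 9.82 and 9.82 in 129. The median of the list was -0.44, and -0.59 without DBA replicate 3. The hour of dissection is not given in the sources used here, so the strain and the time of day cannot be told apart.

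**Figure D4:**
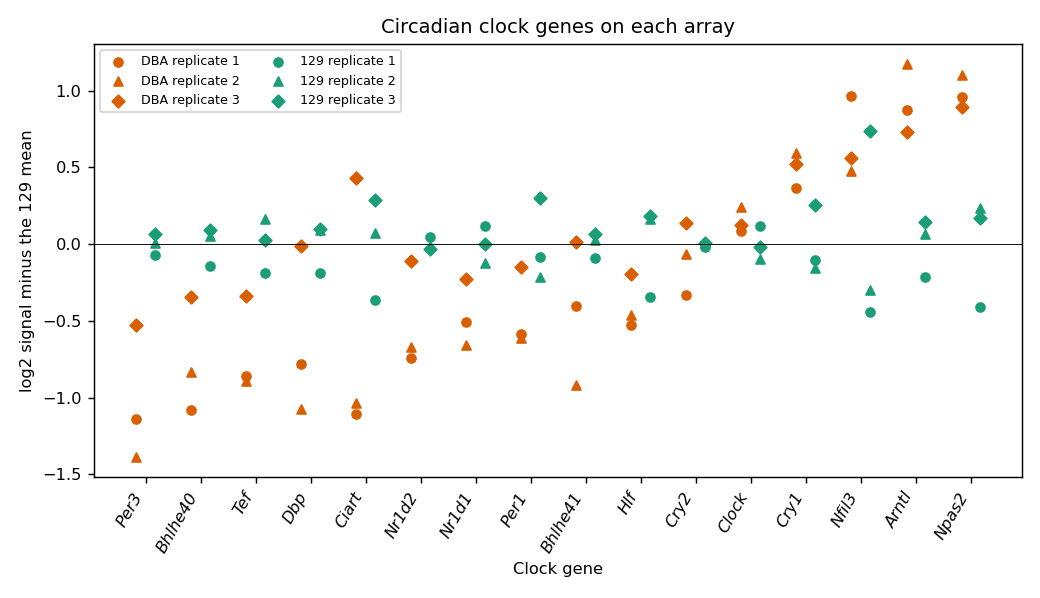
The x axis has the 16 circadian clock genes, ordered by their difference, and the y axis the log2 signal minus the mean of the 3 129 arrays. Orange points are DBA arrays and green points 129 arrays, with 1 shape per replicate number; Per3 to Hlf lie mostly below 0 and Cry1 to Npas2 above it in DBA, and DBA replicate 3 lies nearer to 0 than the other DBA arrays from Per3 to Hlf.

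Single ribosomal and small nucleolar genes differed. Rps13, part of the small subunit of the ribosome, had 7.75, 7.92 and 7.64 in DBA and 3.19, 3.82 and 3.26 in 129, a stable difference of 4.35 ± 0.20 (adjusted p = 2.14e-05), with a B6 mean of 7.85. The 19 other measured members of its list did not pass, and the median of all 20 was 0.02. Outside that list, and chosen after their values were seen, Rps3a1 was lower in DBA (-1.42 ± 0.14, adjusted p = 0.00157, stable) and Rpl34 higher (1.58 ± 0.25, adjusted p = 0.0187), and omitting any 129 array ended the call of Rpl34 (0.0671 to 0.0893; alternatives 0.00349 to 0.226). Ribosomal protein genes have many processed copies in the genome, so these signals are uncertain. Snora73b, a small nucleolar RNA, had 10.69, 10.53 and 10.62 in DBA and 7.55, 7.83 and 7.95 in 129 (2.84 ± 0.31, adjusted p = 0.00281). By the reference annotation 281 of the called genes are protein-coding, 25 are long non-coding RNAs, 5 are small nucleolar RNAs, 7 are transcribed pseudogenes and 1 is another pseudogene.

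Called genes were spread over all autosomes. By share of genes tested, chromosome 3 led with 26 of 1051 (2.47%), followed by chromosome 18 with 12 of 518 (2.32%) and chromosome 9 with 27 of 1254 (2.15%), against 1.44% of all genes. Chromosome X was lowest with 2 of 899 (0.222%), and none of 17 genes on chromosome Y was called. Without DBA replicate 2 the shares were 1.33%, 1.54% and 1.75% for chromosomes 3, 18 and 9, and no X-linked gene passed in limma. Neighbouring called genes were few. Requiring at least 3 called genes, each within 5 tested genes of the next, left 3 groups that held 10 of the 318 called genes with a place on a chromosome. One is the chromosome 5 group of Gbp8, Gbp9, Gbp6 and Lrrc8b, in which Lrrc8b, a subunit of volume-regulated anion channels, was at 1.32 ± 0.15 (adjusted p = 0.00343). Another is the group of Fmo4, Fmo1 and Fmo2 on chromosome 1. The third, on chromosome 4, held Slc25a34, a mitochondrial carrier, with 8.75, 8.77 and 9.26 in DBA and 6.42, 6.18 and 6.12 in 129 (2.69 ± 0.20, adjusted p = 0.000304), beside Tmem82 (1.64 ± 0.24) and Fblim1 (0.93 ± 0.15). Slc25a34 and Lrrc8b were stable calls. Omitting DBA replicate 3, 129 replicate 1 or 129 replicate 2 ended the calls of Tmem82 and Fblim1 (adjusted p = 0.0133 and 0.0225), as did DBA replicate 2 for Fblim1 (0.0609 to 0.102; alternatives 0.00158 to 0.188 and 0.00437 to 0.179). Omission of single arrays left between 0 and 13 such groups.

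**Figure D5:**
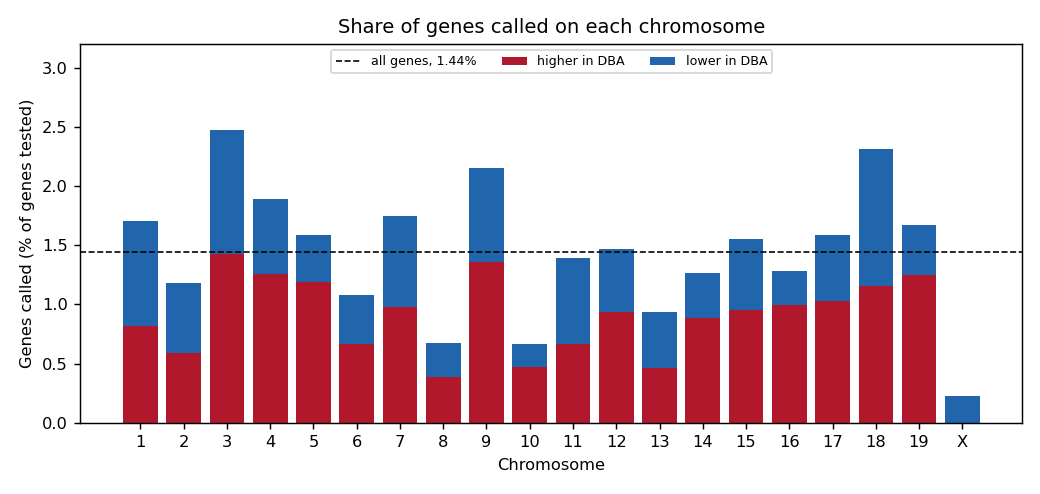
Bars are the called genes of each chromosome as a percentage of the genes tested on it, split into those higher (red) and lower (blue) in DBA, and the dashed line is the share over all genes, 1.44%. Chromosome 3 is highest at 2.47% and chromosome X lowest at 0.222%.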

How the data were processed

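Expression was measured in pooled aortic arch of wild-type male mice, 3 arrays each of DBA, B6 and 129. The deposited values are log2 intensities, 1 per transcript cluster and array, normalised by the authors before deposit; the submitters' processing notes name Expression Console. How it summarised and normalised the probes, and on which build, is not given in the sources used here. Values span 0.668 to 13.6, which fits log2. Probes follow a reference genome, and their match to DBA and 129 sequence was not examined here. Of 41345 clusters, 23521 had 1 gene symbol, 1820 had several and 16004 were unnamed. The brightest cluster per symbol left 22180 genes, of which 21994 were found in the GRCm38.p6 gene table used for chromosomes, gene order and biotypes.

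Strain was tested with limma 3.58.1 (lmFit, eBayes; R 4.3.3) over the 9 arch arrays, since the methods compared the 3 strains in one analysis of variance. P-values were two-sided and adjusted by Benjamini-Hochberg, with a threshold of 0.05. They measure the spread between pools, and the number of arrays limits the precision. Values in sentences are log2 signals of replicates 1, 2 and 3; errors are standard errors of the model. The fit was tested on simulated data. Genes were named by a rule: the 12 largest stable, non-overlapping differences in each direction, the 8 brightest called genes, up to 4 called members of each of 71 gene lists (or the 2 with the lowest p), members of neighbouring groups, and strain and tissue checks; a gene outside the rule is marked in the text as picked with its values known. Uncalled list members outside the rule are given for context and were picked the same way. The members and lists were chosen with earlier results of these data known. Alternatives were other scalings, filters, priors and weights, other sets of arrays and clusters, the replicate number as a block, a 2-fold minimum and the methods' Tukey-Kramer test.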

Additional observations from a re-analysis of the deposited data

Results flagged for a closer look

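Probe sets without a single gene symbol were not used in the comparison above, and some of them differed between DBA and 129 arch when all 41345 clusters were adjusted together. Of 16004 clusters with no gene symbol 112 passed, 45 higher and 67 lower in DBA. Of 1820 clusters with several gene symbols 21 passed, 10 higher and 11 lower in DBA.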

How the results depend on the processing

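The model as reported called 320 genes, 191 higher and 129 lower in DBA. Array weights gave 517 (306 and 211) and all 12 arrays in one fit 568 (328 and 240). The methods' Tukey-Kramer test gave 73 (44 and 29) after Benjamini-Hochberg and 1547 (881 and 666) without adjustment, and a 2-fold minimum left 183 (111 and 72). Omission of single arrays gave 144 to 510 genes, 89 to 288 of them higher and 55 to 222 lower, and 0 to 13 groups of neighbours against 3; without both DBA replicate 2 and B6 replicate 1 there were 338 genes and 8 groups. Other settings stayed within 1.5 times: 407 genes with dim genes left out, 340 after quantile normalisation, 316 after median centring, 451 with a robust trended prior, 380 with the 6 arrays alone, 321 with cluster means and 364 with every cluster as its own feature. Median centring moved the median difference of all genes to -0.05. Same-numbered arrays correlated at 0.0617, 0.0513 and 0.0575 in their deviations. The heart and lung transcripts of DBA replicate 2 enter these deviations, so the values cannot exclude a batch shared by same-numbered arrays. With the replicate number as a block 217 genes passed (130 and 87). All 125 stable calls passed under quantile normalisation, centring, the robust prior, array weights, the 6 arrays alone, all 12 arrays and the block. With cluster means 121 passed, and 64 passed under the Tukey-Kramer test. With dim genes left out 100 passed, but dim stable calls such as Mrap2, Mcpt2 and Mndal were not in that fit. With single arrays omitted Sln ran from -2.18 (without DBA replicate 2) to 1.64 and Csrp3 from -1.86 to 1.71, and without DBA replicate 2 and B6 replicate 1 they were at -2.18 and -1.86. The files give no detection calls, so dim differences cannot be set against background.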
